A study of Mus musculus with 37 samples.

Results

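The genes described here are 10 genes of the kidney tubule, followed through RNA-seq (whole transcriptome sequencing) libraries of the mouse ureter and bladder. They were taken as the rows of these symbols in the count table, so 10 of its 24421 gene symbols, by a rule that uses no measured value. The symbols themselves were chosen with earlier results of these data known. Umod, Slc12a1, Slc34a1, Lrp2, Cubn, Kap, Miox, Slc22a6, Cdh16 and Egf were all present, and each is given in all 37 libraries.

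All mice were wild-type BALB/c females. One set drank 0.05% BBN, a nitrosamine carcinogen that gives rise to urothelial cancer, for 18 weeks from an age of 6 to 7 weeks, and the untreated set drank tap water. UT is the side of the ureter that bore cancer after BBN (11 libraries from 10 mice, both sides of mouse 5), and UN is the side without cancer (7 libraries from 7 mice). U is the ureter of untreated mice (6 libraries, right and left of 3 mice). There are 10 bladders of BBN-treated and 3 of untreated mice. A number shared by UT, UN and BBN bladder libraries marks 1 mouse. The library name of BBN bladder 6 carries a T while its title says only bladder, and it was kept with the bladders. The libraries are bulk tissue, so fewer cells of a type and less RNA per cell cannot be told apart.

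The nephron, the filtering unit of the kidney, passes its filtrate through a series of tubule segments before it enters the collecting duct, the renal pelvis and the ureter. Proximal tubule cells take back most solutes and proteins with transporters and endocytic receptors that few other cells make. The thick ascending limb takes up salt and secretes uromodulin, the most abundant protein of normal urine. The ureter and bladder are lined by urothelium, which has none of these tasks.

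CPM below is the estimated count per 1000000 counts of the library. Library totals ranged from 9724542 to 16735797 in UT, from 4675081 to 14973904 in UN, from 12980008 to 18793560 in U, from 3557697 to 15104379 in BBN bladders and from 14348701 to 16617435 in untreated bladders. The lowest 4 totals, between 3557697 and 7820510, were those of BBN bladders 3, 1 and 4 and of UN 6.

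One library stood apart in every one of the 10 genes. UT 4, a cancerous ureter with a total of 12586794, held 2771 CPM of the 10 genes together, which was 0.277% of its counts. The other 36 libraries held between 2.17 and 75.5 CPM (median 6.91), and the other UT libraries between 3.75 and 13.7. The noncancerous ureter of the same mouse, UN 4, held 5.2 CPM and the bladder of that mouse 30.4.

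**Figure D1:**
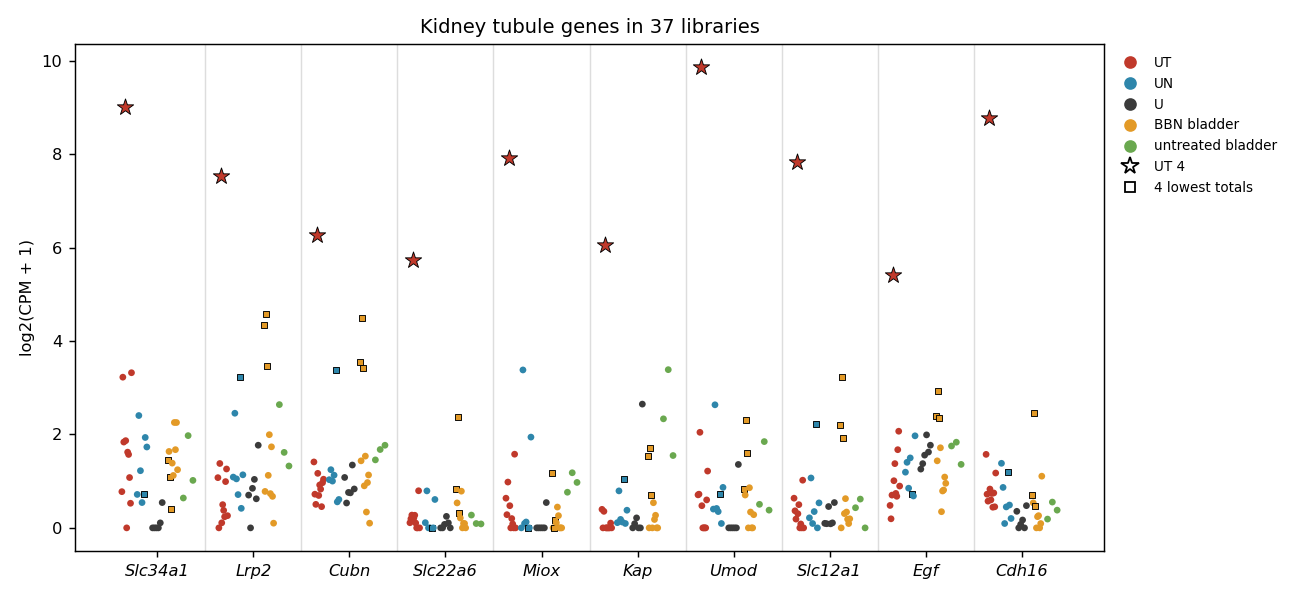
Level of each of the 10 kidney tubule genes, as log2(CPM + 1), in each of 37 libraries, colored by group, with UT 4 as a star and the 4 libraries of lowest total as squares. UT 4 lies above all other libraries in every gene, from 41.8 CPM for Egf to 931 CPM for Umod.

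Among genes of the thick ascending limb and distal tubule, Umod, which encodes uromodulin, was at 931 CPM in UT 4 (11722 counts). It was the 76th most abundant gene of that library. The next library was UN 2 at 5.21 CPM, and UT 4 exceeded it 179-fold. Umod was at 0 in 12 of the 36 other libraries, among them 5 of 6 U libraries.

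Slc12a1 encodes NKCC2, the sodium, potassium and chloride cotransporter of the thick ascending limb. It was at 226 CPM in UT 4, against 8.43 CPM in BBN bladder 3 and 3.64 CPM in UN 6, the next ureter. Egf, the precursor of epidermal growth factor, is made in the distal part of the tubule and in other epithelia. It had the lowest value of the set in UT 4, 41.8 CPM, and no library was at 0 for it.

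Of the proximal tubule genes, Slc34a1, the sodium and phosphate cotransporter NaPi-IIa, was at 514 CPM in UT 4, and the next library, UT 10, was at 8.99. Miox, an oxygenase that breaks down myo-inositol, was at 240 CPM against 9.41 CPM in UN 2. Lrp2 (megalin) and Cubn (cubilin), which form the endocytic receptor for filtered proteins, were at 185 and 75.9 CPM. Both were next highest in BBN bladder 3, at 22.8 CPM for Lrp2 and 21.6 CPM for Cubn, so UT 4 stood only 3.51-fold above it for Cubn.

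Kap, the androgen-regulated protein of proximal tubule cells, was at 65.4 CPM in UT 4 and next highest in untreated bladder 2, at 9.46. Slc22a6, the organic anion transporter OAT1, was at 52.4 CPM against 4.22 CPM in BBN bladder 3. Cdh16, a cadherin of kidney tubule epithelium along many segments, was at 439 CPM, which was 97.6-fold above BBN bladder 3. In UN 4, of the same mouse, none of the 10 genes exceeded 1.82 CPM, the value of Egf.

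Per kilobase of exon, the order within UT 4 was Umod (337 CPM per kb), Miox (146), Cdh16 (116), Slc34a1 (110), Kap (92.5), Slc12a1 (39.2), Slc22a6 (13.2), Lrp2 (11.1), Cubn (5.08) and Egf (3.70). The long proximal transcripts Lrp2 and Cubn therefore ranked low per length although they held 2330 and 955 counts. In GENCODE vM21 (GRCm38), Umod lies at chr7:119462711-119479282 (minus strand), Slc34a1 at chr13:55398187-55415592 (plus strand) and Cdh16 at chr8:104601911-104624396 (minus strand). These levels come from 1 library and have no replicate. Genes on the opposite strand overlap Umod, Slc34a1, Slc12a1, Cubn and Egf, and the sources used here do not state whether the counting used strand, so these values may include antisense reads.

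The promoters of the set are shown because the genes were high together in UT 4 and because HNF1 factors are known regulators of kidney epithelium. RefSeq promoters (GRCm38.p6, from 250 bases before to 50 after the annotated start) were found for 9 of the 10 genes. The half-site GTTAAT, searched on both strands, was in 4 of their 10 promoters (Egf has 2, neither with a match), while 7.1% of 32851 promoters of the same length hold it. Each is written 5' to 3' along the strand of its gene, with the half-site or its reverse complement ATTAAC in capitals.
Umod: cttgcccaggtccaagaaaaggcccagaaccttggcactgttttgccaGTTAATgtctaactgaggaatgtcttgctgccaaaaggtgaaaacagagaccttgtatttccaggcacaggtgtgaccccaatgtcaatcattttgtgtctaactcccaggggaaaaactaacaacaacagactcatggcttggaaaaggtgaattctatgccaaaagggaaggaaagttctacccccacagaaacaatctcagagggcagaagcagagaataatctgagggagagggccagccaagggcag
Slc34a1: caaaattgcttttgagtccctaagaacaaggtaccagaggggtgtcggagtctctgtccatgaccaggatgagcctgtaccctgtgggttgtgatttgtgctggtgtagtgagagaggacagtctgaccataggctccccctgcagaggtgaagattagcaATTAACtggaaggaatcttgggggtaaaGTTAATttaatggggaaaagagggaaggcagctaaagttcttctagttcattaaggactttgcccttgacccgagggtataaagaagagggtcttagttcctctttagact
Miox: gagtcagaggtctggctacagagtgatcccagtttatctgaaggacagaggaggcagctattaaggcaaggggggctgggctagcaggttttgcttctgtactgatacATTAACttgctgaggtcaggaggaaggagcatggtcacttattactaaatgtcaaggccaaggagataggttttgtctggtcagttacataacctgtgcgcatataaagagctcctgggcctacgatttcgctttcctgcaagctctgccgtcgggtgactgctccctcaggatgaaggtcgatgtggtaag
Slc22a6: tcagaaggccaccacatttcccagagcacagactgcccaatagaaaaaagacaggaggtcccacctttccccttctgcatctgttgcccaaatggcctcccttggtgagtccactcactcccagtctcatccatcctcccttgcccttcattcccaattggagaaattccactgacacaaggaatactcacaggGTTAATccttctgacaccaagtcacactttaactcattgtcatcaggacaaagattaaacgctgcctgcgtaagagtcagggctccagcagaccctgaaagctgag
The Umod window is chr7:119479213-119479512 on the minus strand, with the half-site 202 bases before the start. The Slc34a1 window is chr13:55399398-55399697 on the plus strand, with sites 89 and 61 bases before the start. The Miox window is chr15:89334223-89334522 (plus strand, site at 142 bases) and that of Slc22a6 is chr19:8617746-8618045 (plus strand, site at 56 bases). A match is a description of these letters and does not show that a factor binds there.

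Other genes of the kidney were then read from lists of nephron segments. Of 77 further kidney genes, UT 4 was the highest of all libraries in 54, against 4.74% of the 20834 genes that reached 1 CPM in a library. It exceeded the next library more than 10-fold in 28 of the 77 and in 6 of the 10 tubule genes, against 135 of all genes (0.648%). Together these kidney genes and the 10 tubule genes took 1.15% of the counts of UT 4. The lists were chosen with earlier results of these data known, so these shares describe UT 4 and are no independent test.

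Every segment list held genes highest in UT 4. In the proximal tubule list UT 4 was highest in 24 of 30 genes, among them Keg1 (774 CPM, next library 3.66). In the thick ascending limb list it was highest in 7 of 10, and in the lists of distal convoluted tubule and principal cells in 4 of 7 and 4 of 8. Aqp2, the vasopressin-regulated water channel of principal cells, was at 241 CPM against 3.09 CPM in the next library. In the intercalated cell list UT 4 was highest in 6 of 8 genes.

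Genes outside the tubule followed in part. UT 4 was the highest library for 4 of 8 podocyte genes. The podocyte list summed to 273 CPM in UT 4 and to at most 154 CPM elsewhere, in UT 9. The podocyte genes Synpo and Cdkn1c were higher in other UT libraries than in UT 4. Of 6 renal transcription factors, 5 were highest in UT 4, with Pax8 at 139 CPM and UT 10 next at 64.9. Cdkn1c, Keg1 and Aqp2 were chosen after their values were seen, as were Havcr1, Lcn2, Vcam1, Sox9, Hsd3b1 and Nr5a1 below.

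The most abundant genes of these lists in the ureters were not all highest in UT 4. Pck1, a gluconeogenic enzyme of proximal tubule that adipocytes also make, was at 460 CPM in UT 4 and 4164 CPM in U 1L. Ppp1r1a was at 27.8 CPM against 517 CPM in UN 6, and Ptger3 at 26.4 CPM against 172 CPM in UN 2. Aqp3, a water and glycerol channel that urothelium also makes, and Fxyd4 reached 1203 CPM in untreated bladder 3 and 614 CPM in BBN bladder 4, above 278 and 101 CPM in UT 4.

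The others split. Calb1 (calbindin) was at 204 CPM in UT 4 against at most 5.62 elsewhere, Tfcp2l1 at 186 CPM against 47.5 and Podxl at 78.5 CPM against 48.3. Aqp1, at 132 CPM, was higher in UN 1 (236), Slc8a1, at 42.7 CPM, in UN 1 (57.3), and Atp6v0d2, at 54.4 CPM, in UT 1 (84.1).

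Of 6 genes induced in injured tubule, UT 4 was the highest library for 2, Havcr1 and Spp1. Havcr1 (KIM-1) was at 343 CPM against 7.65 CPM in UT 3. Spp1 (osteopontin), which tumor cells and macrophages also make, was at 21338 CPM against 2005 CPM in UT 2. Lcn2, at 348 CPM, lay below its value of 1465 CPM in UT 3, Vcam1 (170 CPM) below UT 8 (306) and Sox9 (14.1 CPM) below UT 10 (43.8). Krt18, at 344 CPM, was below the median of the other libraries (437.5).

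Markers of other tissues did not single out UT 4. The summed urothelium list was at 2184 CPM in UT 4 and between 841 and 4848 CPM in the other UT libraries. The smooth muscle list was at 529 CPM, within the 373 to 2580 CPM of the others, and the adipocyte list at 115 CPM, within 58.6 to 40544. UT 4 was the highest library for none of the genes of the urothelium, smooth muscle, adipocyte, adrenal cortex, female reproductive tract, skeletal muscle, and liver and pancreas lists. The adrenal list summed to 7.98 CPM in UT 4, with Hsd3b1 and Nr5a1 at 0.

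**Figure D2:**
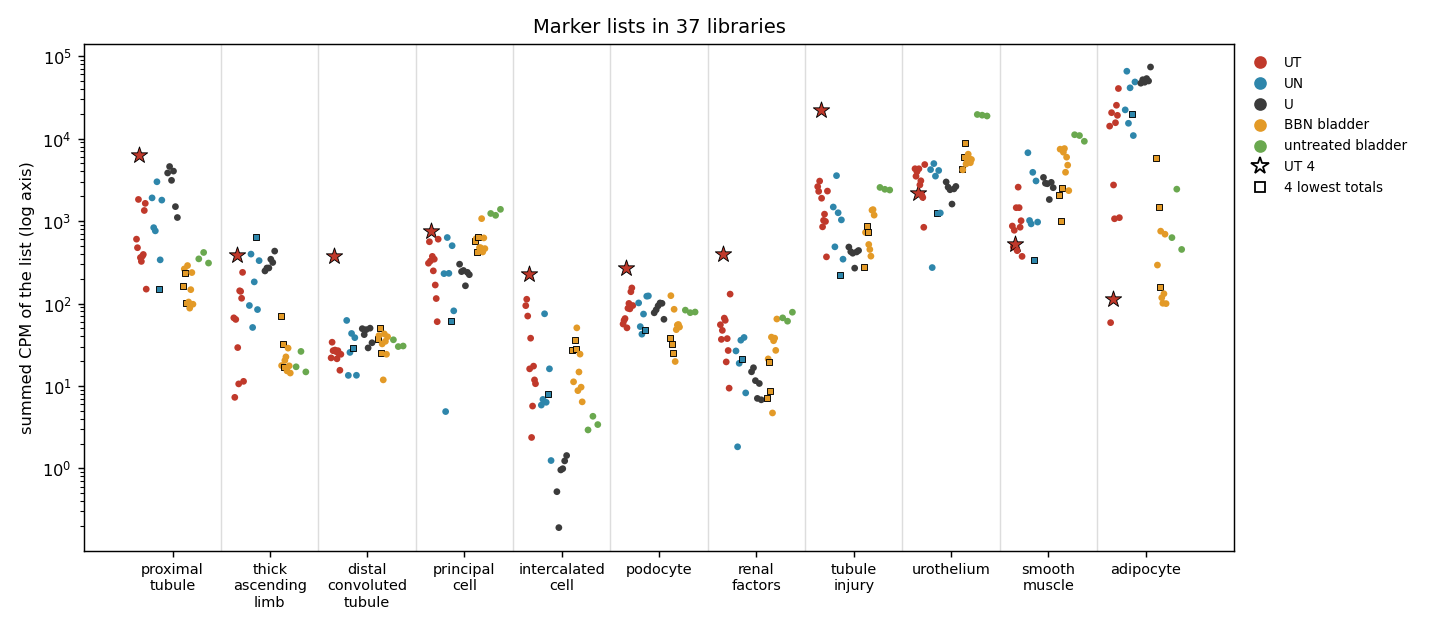
Summed CPM of marker lists (log axis) in each of 37 libraries, colored by group, with UT 4 as a star and the 4 lowest totals as squares. UT 4 is the highest library for the lists of proximal tubule, distal convoluted tubule, intercalated cell, podocyte, renal factors and tubule injury, and lies among the other UT libraries for urothelium, smooth muscle and adipocyte. It is not the highest for thick ascending limb (387 CPM, against 644 CPM in UN 6) or principal cell (753 CPM, against 1388 CPM in untreated bladder 3).

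Genes with the pattern most like that of the set were sought over the 24 ureter libraries by Pearson correlation of log2(CPM + 1) with the mean of the 10 genes on that scale. Of 15852 genes, Hao2, a peroxisomal oxidase, was first (r = 0.992), and Aldh8a1, Them7, Cyp2j5 and Slc13a1 followed among genes outside the kidney lists. Cideb, Tmem27, Spink1, AI314278 and Tmem52b completed the 10 most alike. The points share UT 4, at which Hao2 was at 202 CPM and at most 1.46 CPM in other ureters. Without it, r was 0.876 for Hao2 and between 0.651 and 0.886 over the 10 genes, over ureter values of at most 4.92 CPM.

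A lower level was spread over more libraries. A library was said to carry the set where at least 5 of the 10 genes reached 1 CPM, and 8 of 37 libraries did so: UT 4, UN 2, UN 6, BBN bladders 1, 3 and 4 and untreated bladders 2 and 3. None of the 6 U libraries did. At a level of 5 CPM only UT 4 remained, and at 0.5 CPM there were 18 libraries.

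The 4 libraries of lowest total were all among these 8 and held the genes of longest genomic span. Cubn, which spans 215 kb, was between 9.41 and 21.6 CPM in these 4 libraries and at most 2.41 CPM in the 32 others apart from UT 4. Lrp2 (162 kb) was between 8.34 and 22.8 CPM in them and at most 5.23 CPM in the others, and Slc12a1 (77.5 kb) between 2.81 and 8.43 CPM against at most 1.10.

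The short genes gave no such separation. Kap (3.91 kb) was between 0.639 and 2.25 CPM and Miox (2.62 kb) between 0 and 1.26 CPM in the same 4 libraries, both within the range of the others. Within their groups, however, UN 6 was the highest UN library for Kap, and BBN bladders 3, 1 and 4 were the highest of the 10 BBN bladders. Egf, with a span of 77.8 kb, just above that of Slc12a1, was an exception among the long genes. It was at 0.642 CPM in UN 6, below the median of the 32 others (1.48 CPM), and between 4.09 and 6.61 CPM in the 3 bladders. These 4 libraries also had the lowest RNA integrity in the study's sequencing statistics. The part of total and integrity in these values was not tested.

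**Figure D3:**
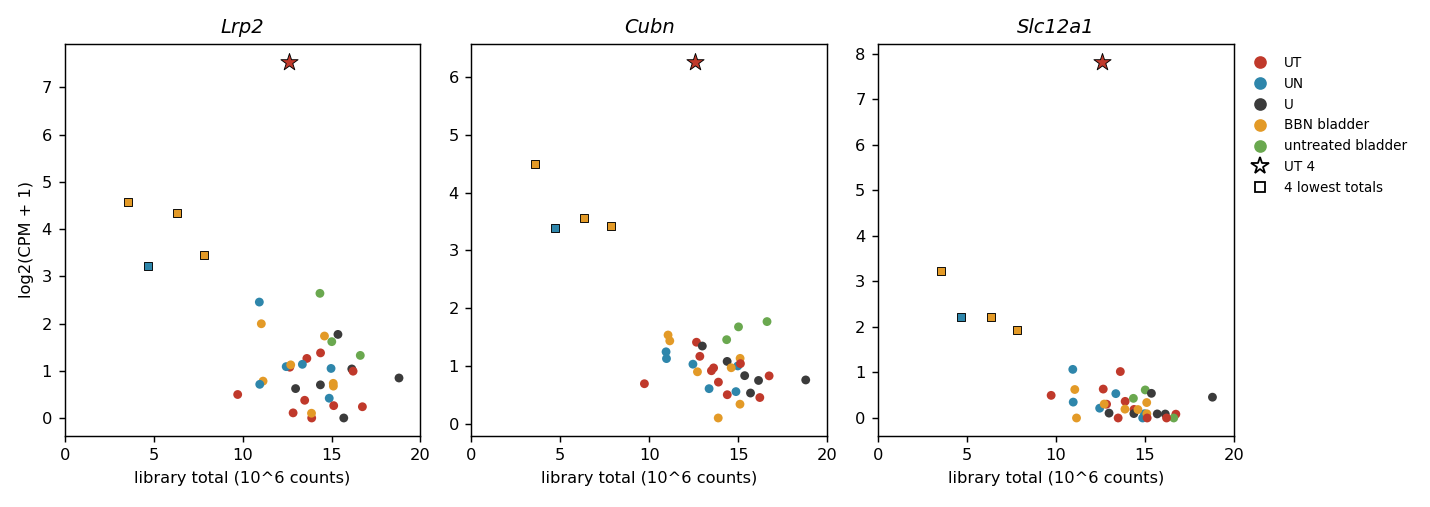
log2(CPM + 1) of Lrp2, Cubn and Slc12a1 against the library total in counts, 1 point a library, colored by group, with UT 4 as a star and the 4 lowest totals as squares. The 4 libraries of lowest total lie above the 32 others in all 3 genes and below UT 4, whose total of 12586794 is in the middle of the range.

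UN 2 and the untreated bladders showed other patterns. UN 2 held Miox at 9.41, Umod at 5.21, Lrp2 at 4.48 and Slc34a1 at 4.30 CPM, a sum of 29.8 CPM over the 10 genes. The untreated bladders had Kap at 4.04, 9.46 and 1.93 CPM, and U 3L had it at 5.27. In 7 of the 10 other UT libraries Kap was at 0.

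The first comparison asked how the cancerous side differed from the noncancerous side. Of the 10 genes, 6 passed edgeR's filter on low counts in the fit of 24 ureter libraries, and Slc12a1, Kap, Miox and Slc22a6 did not. Cdh16 was between 0.359 and 439 CPM in UT (median 0.667) and between 0.0668 and 1.61 CPM in UN (median 0.403), and only UT 1 and UT 4 lay above every UN library. Slc34a1 was between 0 and 514 CPM in UT (median 2.08) and between 0.456 and 4.30 CPM in UN (median 1.34).

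Both were called higher in UT (edgeR quasi-likelihood test, with the FDR limit set at 0.1 and at least 2-fold). The log2 fold change was 5.70 ± 1.77 (SE) for Cdh16 (adjusted p = 0.0805) and 4.39 ± 1.49 for Slc34a1 (adjusted p = 0.0929). Umod missed the threshold at 5.79 ± 2.11 (adjusted p = 0.110), and no gene of the set was called lower. Over all 15658 genes tested, 1.32% were called higher and 4.2% lower. In UT and UN alone, blocked by mouse, Cdh16 was at 0.95 (adjusted p = 0.802) and Slc34a1 at 0.62 (adjusted p = 0.871), and no gene of the set was called. Both calls also missed the FDR limit when UT 2, UT 5R, UT 5L, UT 10, UN 2, UN 4, UN 6 or UN 9 was left out (edgeR, adjusted p between 0.105 and 0.219), and that of Slc34a1 when UT 3 (0.102) or UN 1 (0.119) was.

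Without UT 4 the calls were gone. Cdh16 had a log2 fold change of 0.01 ± 0.52 (adjusted p = 0.995) and Slc34a1 of 0.37 ± 0.77 (adjusted p = 0.777), and Umod no longer passed the filter. Lrp2 turned from 2.26 to -2.48 ± 0.82 (adjusted p = 0.102) and Cubn from 1.28 to -1.81 ± 0.60 (adjusted p = 0.103), with UN 6 the highest ureter for both. With UN 6 left out as well, Lrp2 was at -1.54 and Cubn at -0.28, neither called. DESeq2 replaced the counts of UT 4 in all 6 genes as outliers, and those of UN 6 for Cubn and UN 2 for Umod. It called Lrp2 lower in UT (-2.55, adjusted p = 0.0275) and none of the set higher.

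Calls among further kidney genes were few and depended on the fit. Of the 77 listed, 48 passed the filter, of which 3 were higher (among them Slc26a4 and Pax8) and 1 lower in UT than in UN, at a median log2 fold change of 0.92 against -0.02 over all genes. Without UT 4, 44 passed, 2 were higher (Slc26a4 at 4.78 and Pax8 at 2.04, both at an adjusted p of 0.0936 by edgeR) and 2 lower, and the median was -0.41. Over all genes of that fit, 0.813% were called higher and 2.84% lower. DESeq2 with all libraries called Slc26a4 (4.65, adjusted p = 0.0126) and Pax8 (2.61, adjusted p = 0.00536) higher and 4 of the listed genes lower, at a median of -0.22. It called 2.62% of all genes higher and 6.26% lower. Blocked by mouse in edgeR, neither Slc26a4 nor Pax8 was called (Slc26a4 at 5.26, adjusted p = 0.728, and Pax8 at 2.45, adjusted p = 0.454), nor in edgeR's fit of UT and UN alone (adjusted p = 0.202 for both). Both edgeR calls were also lost when UT 2, UT 5R, UT 5L, UT 10, UN 2 or UN 6 was left out, at adjusted p between 0.104 and 0.215. Slc26a4 (pendrin) was at 52.9 CPM in UT 2 and 46.4 CPM in UT 4. Havcr1 fell from a log2 fold change of 5.71 (adjusted p = 0.0860) to 1.17 (adjusted p = 0.496).

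**Figure D4:**
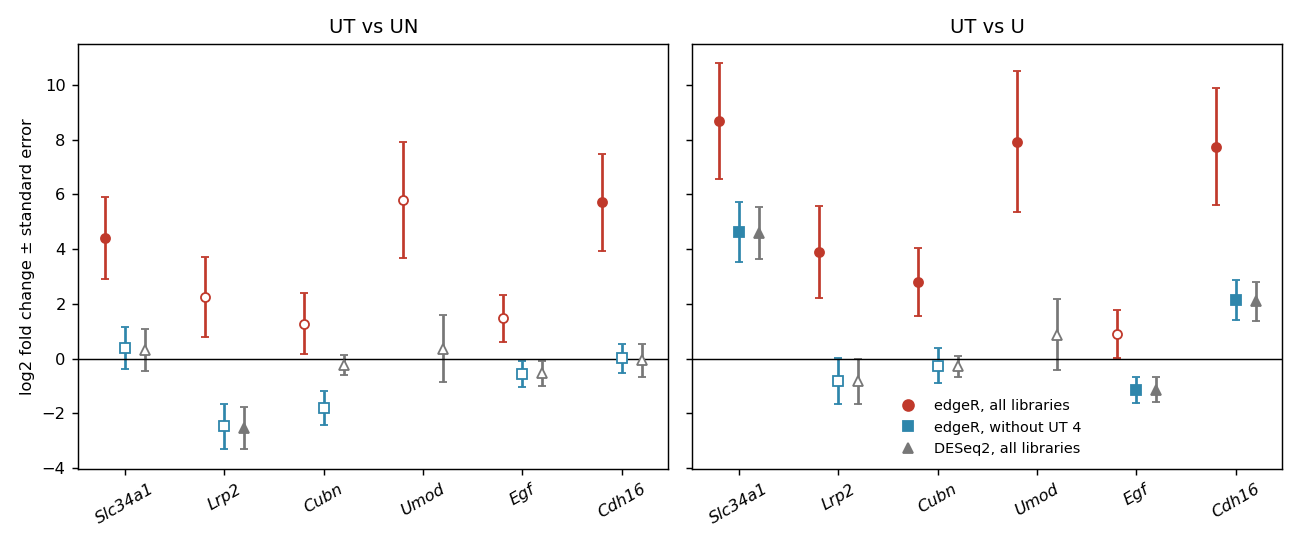
log2 fold change with its standard error for the 6 genes tested in the ureters, for UT against UN and UT against U, by edgeR with all libraries, by edgeR without UT 4 and by DESeq2. Filled symbols passed the thresholds. Without UT 4 none of the set passes in UT against UN, while Slc34a1 and Cdh16 stay higher and Egf is lower in UT than in U. The fit that also leaves out UN 6, in which Cdh16 was not tested, is not drawn.

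The second comparison set the cancerous side against untreated ureter. Slc34a1 was at 0 in 4 of the 6 U libraries and at 0.0770 and 0.456 CPM in U 3R and U 3L, and 9 of 11 UT libraries lay above all of them. With all libraries, 5 of the 6 genes tested were called higher in UT, where 18.7% of all genes were called higher and 12.3% lower. They were Slc34a1 (log2 fold change 8.67 ± 2.12, adjusted p = 0.00242), Umod (7.93), Cdh16 (7.75), Lrp2 (3.88) and Cubn (2.81). This fit takes both ureters of a mouse as independent. With the ureters of a mouse summed, Slc34a1 (8.79, adjusted p = 0.0431) and Cdh16 (7.89, adjusted p = 0.0710) were still called by edgeR, while Umod (adjusted p = 0.121), Lrp2 (0.233) and Cubn (0.250) were not, where 13.7% of all genes were called higher.

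Without UT 4, Slc34a1 (4.63 ± 1.09, adjusted p = 0.00194) and Cdh16 (2.12 ± 0.73, adjusted p = 0.0225) were still higher in UT by edgeR, where 18.4% of all genes were called higher and 12.8% lower. This fit also takes both ureters of a mouse as independent, and summed ureters were not fitted without UT 4. With UN 6 left out as well, Slc34a1 was still called (4.64, adjusted p = 0.00200), while Cdh16 no longer passed the filter on low counts and was not tested. Among the further kidney genes, UT exceeded U by the call rule for 26 of 48 tested with UT 4 and fell below it for 8; without UT 4 these counts were 15 and 13 of 44. UT libraries other than UT 4 had Slc34a1 between 0 and 8.99 CPM (median 2.02), with UT 2 and UT 10 above 8 CPM. They had Cdh16 between 0.359 and 1.98 CPM (median 0.658) against 0 to 0.391 CPM in U. Lrp2 was then at -0.82 and Cubn at -0.26, not called, and Umod was not tested.

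Egf went the other way. It was between 1.39 and 2.97 CPM in all 6 U libraries (median 2.01), and between 0.144 and 3.20 CPM in UT without UT 4 (median 0.763). The log2 fold change was 0.89 (adjusted p = 0.429) with UT 4 and -1.14 ± 0.47 (edgeR, adjusted p = 0.0529) without it, past the thresholds. Here too both ureters of a mouse count as independent. The adipocyte list, which has all 8 of its genes lower in UT than in U, was between 47031 and 73914 CPM in U and between 58.6 and 40544 CPM in UT, and its part in these differences was not tested.

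**Figure D5:**
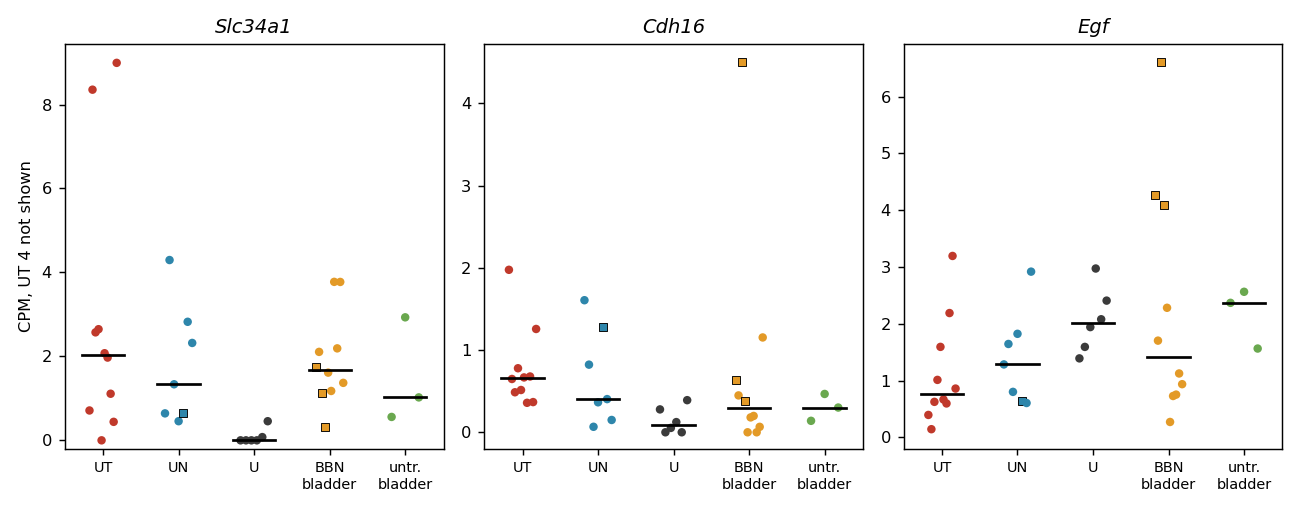
CPM of Slc34a1, Cdh16 and Egf by group without UT 4, 1 point a library, with the median as a bar and the 4 lowest totals as squares. Slc34a1 is near 0 in U, at most 0.456 CPM, and Egf is at 1.39 CPM or more in every U library.

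Noncancerous and untreated ureter were then compared. Slc34a1 was between 0.456 and 4.30 CPM in UN, and no UN library lay below the highest U library, U 3L, also at 0.456 CPM to 3 digits. Its log2 fold change was 4.28 ± 2.04, which was not called (edgeR, adjusted p = 0.164), and none of the 6 genes was, where 12.5% of all genes were called higher and 1.21% lower. At an unadjusted p, Slc34a1 alone of the 6 was below 0.05 (p = 0.0464, edgeR fit of all genes). The spread of that fit is shared with UT 4. In the fit of UN and U alone, 3 genes of the set were tested and 0 were called. UN against U was not read with UT 4 alone left out. With UT 4 and UN 6 left out together, chosen after seeing the data, Slc34a1 was called at 4.35 ± 1.14 (edgeR, adjusted p = 0.0152). By DESeq2 with all libraries Slc34a1 (4.28, adjusted p = 0.000605) and Cdh16 (2.16, adjusted p = 0.0327) were called higher.

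In the bladder, 9 of the 10 genes passed the filter and none was called between BBN-treated and untreated mice, where 7.61% of 18050 genes were called higher and 5.74% lower by edgeR. None of the 9 had an unadjusted p below 0.05 by edgeR, and DESeq2 called Slc12a1 higher (3.61, adjusted p = 0.0859). Kap was between 0 and 2.25 CPM in BBN bladders (median 0.169) and 4.04, 9.46 and 1.93 CPM in untreated bladders. Its log2 fold change was -2.52 ± 1.39 (edgeR, adjusted p = 0.231).

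This result changed when the 3 bladders of low total were left out together, an omission chosen after seeing the data. It left 6 of the 10 genes to test. Leaving out any 1 of these 3 bladders called no gene of the set. With BBN bladders 1, 3 and 4 left out, Kap was at -5.26 ± 0.99 (edgeR, adjusted p = 0.00364) and Miox at -3.17 ± 0.97 (adjusted p = 0.0406), both called lower in BBN bladders. In that fit 9.02% of 15735 genes were called lower and 11.3% higher. Lrp2, Cubn and Egf turned from 1.84, 1.998 and 0.72 to -1.001, -0.91 and -0.93, none of them called.

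Between the untreated tissues, 5 of the 10 genes were tested. Miox was at 0 in 5 of 6 U libraries and 0.456 CPM in U 3L, and at 0.697, 1.27 and 0.963 CPM in the 3 bladders, so the groups did not overlap. It was lower in U by a log2 fold change of -3.18 ± 0.89 (edgeR, adjusted p = 0.00850), where 14.3% of 15318 genes were called lower and 15.7% higher. Cubn, at -0.91 (adjusted p = 0.0359), stayed under the 2-fold limit, but was called lower without U 3R (-1.12, adjusted p = 0.0105) or untreated bladder 1 (-1.03, adjusted p = 0.0512). Kap and Lrp2, not called with all libraries, also depended on single ones. Without U 3L, which had the highest sum of the U libraries (14.2 CPM), Kap was at -6.11 (adjusted p = 3e-05) and Lrp2 at -1.88 (adjusted p = 0.0199), both called lower in U by edgeR. Without untreated bladder 3, Lrp2 was called at -1.59 (adjusted p = 0.0994). Miox was called in each of the 9 fits that left out 1 library, at -6.72 without U 3L, where all remaining U libraries were at 0 and the fold depends on the prior count. Slc34a1 did not pass the filter with all libraries, and was tested and called lower without untreated bladder 1 (-4.01, adjusted p = 0.00397), with the ureters of a mouse summed (-3.62, adjusted p = 0.0150) and with no filter (-3.63, adjusted p = 0.00421). With the mouse as a block Kap was also called (-3.25, adjusted p = 0.0638).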

How the data were processed

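RNA from mouse ureters and bladders was sequenced after SMARTer and Nextera XT library preparation. The authors mapped the reads to GRCm38/mm10 and deposited estimated counts per gene symbol, without normalization. The submitters' processing notes name TopHat2 2.1.1 and Cuffdiff 2.2.1, without their roles; the counting program and strand are not given in the sources used here. Fractional values made up 21.1% of those above 0, and each was rounded to whole numbers for testing.

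The 10 genes and all lists were chosen with earlier results of these data known. CPM were taken over library totals, without a prior count. Groups were tested with edgeR 4.0.16 (R 4.3.3; quasi-likelihood, TMM, filterByExpr) in 3 fits: the 24 ureters, the bladders, and U with untreated bladder. A gene was called at FDR under 0.1 (Benjamini-Hochberg over all genes tested) and a fold change of at least 2. All 11 UT libraries were used; the study's legends give 10 and do not say in words which is left out. The genes named are the 10, the 2 most abundant of a list over the ureters, and the 10 genes outside the kidney lists with the most similar pattern; any other name was picked with its values known. One gene of the lists is not reported here. The abundant genes of lists outside the kidney are given only within list sums.

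UT and UN of the same number are from 1 mouse. Once each group's mean was taken out, log2 CPM of such pairs correlated at a median of 0.0443 (7 pairs, -0.174 to 0.656), against -0.0111 for 70 pairs of different mice. Chi-square divided by its degrees of freedom was at least 7.37 for any pair within a group, so none was treated as a copy. On simulated counts for UT against UN, edgeR recovered 194 of 200 genes changed 4-fold (97%) among 15938, with 18 false calls. Both ureters of a mouse enter as separate libraries. Alternatives were RLE, DESeq2 1.42.0, no filter, fits of 2 groups, the mouse as a block, summed ureters, other CPM limits and leaving out libraries; the joint omissions were chosen after seeing the data. Gene coordinates and exon lengths are of GENCODE vM21. Plots used Python 3.11.15 with matplotlib 3.10.9. At low totals few counts stand behind a CPM, and zero counts say only that none was seen.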

Additional observations from a re-analysis of the deposited data

Results flagged for a closer look

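Single libraries lay apart from their group in 9 of 33 sets of values. For values without ties, chance gives such a gap in about 1 of 20 sets, a rate that does not hold for near-zero counts: where all other libraries were at 0, as for Umod and Miox in U, any library above 0 lay apart. U 3L was the highest of the 6 U libraries for Umod (1.56 CPM, next 0), Slc34a1 (0.456 CPM, next 0.0770), Kap (5.27 CPM, next 0.160) and Miox (0.456 CPM, next 0), so 4 of the 9 are in 1 library and are not independent. UN 2 lay apart for Umod (5.21 CPM, next 0.823) and UN 6 for Cubn (9.41 CPM, next 1.37). BBN bladder 3 lay apart for Slc22a6 (4.22 CPM, next 0.789) and Cdh16 (4.50 CPM, next 1.15), and BBN bladder 1 for Miox (1.26 CPM, next 0.362). UT, with 11 libraries, and the untreated bladders, with 3, were not tested in this way, because the limits used do not cover these group sizes. Gaps were taken on log2(CPM + 1).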

How the results depend on the processing

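UT 4 decided most ureter results, so they are limited to what 1 library can show. Log2 fold changes that turned sign without UT 4 were, for UT against UN, those of Lrp2 (-2.48), Cubn (-1.81) and Egf (-0.57), and for UT against U those of Lrp2 (-0.82), Cubn (-0.26) and Egf (-1.14). With UT 4 and UN 6 left out together, chosen after seeing the data, they were -1.54, -0.28 and -0.62 for UT against UN, and -0.82, -0.26 and -1.14 for UT against U. DESeq2, which replaced the counts of UT 4 in the 6 genes tested, of UN 6 for Cubn and of UN 2 for Umod, gave Lrp2 -2.55, Cubn -0.23, Cdh16 -0.0625 and Egf -0.53 for UT against UN, Cubn -0.0577 for UN against U, and Lrp2 -0.83, Cubn -0.29 and Egf -1.14 for UT against U. Over the fits with 1 library left out the highest values were 3.20, 2.81 and 1.76 for UT against UN, and 4.51, 3.02 and 1.03 for UT against U, in the same order of genes. Cubn for UN against U ranged from -0.0300, without UN 6, to 1.76. In the bladder, Umod ranged from -0.31, without BBN bladder 3, to 1.90, and was also below 0 without untreated bladder 1 (-0.0603) and without untreated bladder 3 (-0.12). With BBN bladders 1, 3 and 4 left out, Lrp2 was at -1.001, Cubn at -0.91 and Egf at -0.93, and 2 of the 10 genes were called lower in BBN bladders. The cause of these changes was not tested.

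With the mouse as a replicate block, Lrp2 was at -0.70, Cubn at -0.0168 and Egf at -0.34 for UT against UN, and 0 of the 10 genes were called. Over all genes 1 was higher and 0 lower in UT (edgeR). This fit held UT and UN alone, and without the block those 2 groups gave 0 higher and 0 lower. The 206 higher and 658 lower came from the fit of all 24 ureters. For U against untreated bladder the replicate block gave 2 genes of the set lower, against 1 without it.

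For UT against UN, 2 of the 10 genes were higher and 0 lower. There were 0 higher by DESeq2 (1 lower), in a fit of the 2 groups alone, with both ureters of a mouse summed, and with UT 4 and UN 6 left out, and 0 to 3 with 1 library left out. Over all genes, DESeq2 called 411 higher, no filter 1137 lower, summed ureters 5 higher and 8 lower, and the joint omission 2 higher and 1 lower. The fit of the 2 groups alone called 0 higher and 0 lower, with 2806 of 15151 genes at an unadjusted p under 0.05. With 1 library left out, 4 to 614 genes were higher and 1 to 1245 lower, so the count of calls over all genes rests on single libraries.

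For UT against U, 5 of the 10 were higher and 0 lower: 2 higher and 1 lower by DESeq2, 8 higher without a filter, 3 higher in the fit of 2 groups, 2 higher with summed ureters, and 1 higher and 1 lower with the joint omission. With 1 library left out it was 2 to 5 higher and 0 to 1 lower. For UN against U, 0 were called, 2 were higher by DESeq2 and 1 with the joint omission. Over all genes 1950 were higher and 189 lower there, with 296 lower by DESeq2, 378 lower in the fit of 2 groups, 147 higher and 10 lower with summed ureters, and 97 to 422 lower with 1 library left out. In the bladder, DESeq2 called 1 of the set and 4646 of all genes higher, against 1373, and leaving out 1 library gave 528 to 1679 higher and 496 to 1105 lower. For U against untreated bladder, 1 of the set was lower: 2 without a filter and 2 with summed ureters, and 1 to 3 with 1 library left out.

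The set was carried by 1 UT, 2 UN, 0 U, 3 BBN bladder and 2 untreated bladder libraries. At 0.5 CPM these were 5, 4, 1, 5 and 3, at 5 CPM 1, 0, 0, 0 and 0, at 8 of 10 genes 1, 0, 0, 1 and 0, and with TMM-scaled CPM 1, 2, 0, 3 and 1. Across the other single-gene fits with 1 library left out, 380 of the set's values kept direction and call, 30 lost the call and 9 gained it.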
